A study of Mus musculus with 22 samples.

Results

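The IL-6 family of cytokines signals through receptor chains that share gp130, the product of Il6st. The 9 genes described here are the ligands Il6, Il11, Lif, Osm, Cntf and Clcf1 and the receptor chains Il6st, Lifr and Osmr. They were chosen by gene symbol, and all 9 were found among the 53379 genes of the count table and among the 40714 genes tested. The mice were adult C57/BL6N males, acquired at 8 weeks and acclimatised for 4 weeks, that received 70 nl of 20 mM kainate or 0.9% NaCl (sham) above the right hippocampus. Kainate is a glutamate receptor agonist that induces status epilepticus, and kainate mice were included only if they displayed convulsive seizures. The left hippocampus, contralateral to the injection, was taken at 24 h according to the titles and the study's methods, whereas the extraction text of the labels names the right side. The 8 mice of each treatment were pooled into 3 samples, and nuclei were sorted by NeuN, a neuronal nuclear protein, into a NeuN+ (neuronal) and a NeuN– (glial) fraction. There were 3 kainate and 3 sham NeuN+ libraries, 3 kainate NeuN– libraries and 2 sham NeuN– libraries, numbered 1 and 3. By the methods of the study, the NeuN– fraction may also hold endothelial cells, pericytes and some neurons.

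Members of this family bind first to a ligand-specific chain or directly to gp130 and its partners, and the receptor complex then activates Janus kinases (JAK) and the transcription factor STAT3. IL-6 and IL-11 use their own binding chains together with gp130, LIF uses the LIF receptor, oncostatin M (Osm) uses the OSM receptor, and CNTF and CLCF1 use the CNTF receptor chain with gp130 and the LIF receptor. In brain, this pathway is known for its part in the reactive state of astrocytes and for the growth and survival of neurons, and STAT3 induces its own inhibitor Socs3.

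Total counts were 12058875 to 45428465 per library. The unit of a level is CPM, the reads of a gene for a fixed library total, with TMM factors to correct for library composition. The 4 libraries numbered 1 had TMM factors of 0.700 to 0.864 and the other libraries 0.865 to 1.68. Kainate NeuN– library 2 and sham NeuN– library 1 were made from 0.05 ng of RNA with 15 PCR cycles, the others from 1 ng with 10 cycles. Deviations from group means of kainate and sham libraries of the same number correlated at 0.161 to 0.787, and libraries of different number were not compared. Values with the number as a block are given where they change a call. Summed over 8 markers, neuronal transcripts reached 3602 to 7637 CPM in NeuN+ and 628 to 1034 CPM in NeuN– libraries. Summed oligodendrocyte markers (6 genes) reached 188 to 441 CPM in NeuN+ and 4692 to 37450 CPM in NeuN– libraries. The markers thus lay on the side of each fraction's label.

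Stretches of upstream sequence are shown for cytokine genes, because Lif and Il11 had the largest fold changes in NeuN– nuclei and Il6 is the family's name-giving gene, whose difference did not pass the test. They are the 250 bases before the RefSeq gene start (GRCm38.p6), written 5′ to 3′, with the letters of an AP-1 motif in capitals. The Il11 stretch precedes its inner start and lies in an intron of the longer Il11 transcripts.
Lif, chr11:4257318-4257567, plus strand: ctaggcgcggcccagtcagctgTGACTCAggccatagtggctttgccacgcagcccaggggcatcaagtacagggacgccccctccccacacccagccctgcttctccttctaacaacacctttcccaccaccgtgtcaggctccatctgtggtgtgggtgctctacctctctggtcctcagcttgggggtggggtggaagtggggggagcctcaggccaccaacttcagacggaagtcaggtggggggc
Il11, chr7:4778142-4778391, minus strand: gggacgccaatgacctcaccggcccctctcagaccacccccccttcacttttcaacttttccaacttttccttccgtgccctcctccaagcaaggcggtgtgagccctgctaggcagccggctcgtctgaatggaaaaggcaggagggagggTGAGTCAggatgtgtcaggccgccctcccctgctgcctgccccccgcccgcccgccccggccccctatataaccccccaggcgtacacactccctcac
Il6, chr5:30012864-30013113, plus strand: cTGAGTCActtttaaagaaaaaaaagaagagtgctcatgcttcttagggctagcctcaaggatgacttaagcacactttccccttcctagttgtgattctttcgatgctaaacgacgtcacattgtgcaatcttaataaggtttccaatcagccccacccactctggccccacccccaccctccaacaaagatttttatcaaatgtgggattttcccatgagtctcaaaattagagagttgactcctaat

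Upstream stretches were found for 7 of the 9 members, 9 stretches in all with a pair of starts each for Il11 and Lifr. The AP-1 motif TGANTCA was found before Lif (TGACTCA, from 228 bases upstream), before the inner start of Il11 (TGAGTCA, 98 bases), before Il6 (TGAGTCA, 249 bases) and before Cntf (TGACTCA, 245 bases). It was found in 6.75% of 32851 mouse promoter stretches of the same length. The STAT motif TTCNNNGAA (7.02% of stretches) and the cAMP response element TGACGTCA (1.55%) were found in none of the 9. Each motif equals its own reverse complement, so both strands were covered, and no match overlapped another motif. AP-1 letters were thus found before Lif and Il11, which passed in NeuN– nuclei with the replicate block described below, and before Il6 and Cntf, whose differences between kainate and sham did not pass in either fraction, with or without the block.

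In NeuN+ nuclei, the question was which ligands and receptors changed with kainate. Clcf1, a ligand of the gp130 family, was the 1 of 9 members upregulated at a false discovery rate (FDR) below 0.25. This threshold was passed upward by 0.157% of all genes tested. Clcf1 reached 6.26, 11.5 and 9.59 CPM in kainate libraries 1 to 3 and 0.739, 2.21 and 1.45 CPM in sham libraries 1 to 3. All 3 kainate libraries exceeded all 3 sham libraries. The log2 fold change was 2.61 ± 0.48 (SE), 6.10-fold, with an FDR of 0.137 by edgeR's quasi-likelihood test. Within numbers, the kainate library was 7.74-, 5.07- and 6.32-fold higher. In these bulk samples, a change in the share of a cell type and a change in RNA per cell cannot be told apart. With 1 library left out, the log2 fold change of Clcf1 stayed at 2.32 to 3.03 over 11 fits, while the call was made in 5 of them, with FDRs of 0.0578 to 0.859. The call was lost without kainate NeuN+ library 2 (FDR 0.503) or 3 (0.380), without sham NeuN+ library 1 (0.335), 2 (0.556) or 3 (0.859) and without kainate NeuN– library 2 (0.281), which is not part of this comparison. With the replicate number as a block the FDR was 2.41e-10.

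With that block, 3 members were upregulated in NeuN+ nuclei, namely Clcf1, Lif and Osmr, and 3.19% of all genes passed upward. Lif, which signals through the LIF receptor and gp130, reached 0.569, 4.97 and 20.04 CPM in kainate and 0.134, 2.27 and 3.19 CPM in sham libraries. Both groups were lowest in library 1 and overlapped. The kainate library was higher by 3.02-, 2.15- and 6.15-fold within numbers 1 to 3. The log2 fold change of Lif was 2.15 ± 0.96 without the block (FDR 1) and 1.92 ± 0.32 with it (FDR 3.24e-05). Without the block, the size of the Lif difference depended on kainate library 3, without which it was 0.58, and it was 2.74 without sham library 3. Library 1 of each group held 8 and 2 reads of Lif.

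Osmr, the chain that binds oncostatin M with gp130, reached 7.11, 6.98 and 12.9 CPM in kainate and 1.88, 5.02 and 5.51 CPM in sham NeuN+ libraries. The groups did not overlap. Its log2 fold change was 1.11 ± 0.48 (FDR 1) and 1.13 ± 0.28 with the block (FDR 0.00791). Il11 did not overlap either, with 0.854 to 1.89 CPM against 0.484 to 0.806 CPM, but its difference of 1.04 ± 0.59 did not pass in either fit (FDR 1 and, with the block, 0.336). Non-overlapping groups with kainate higher were found for 3 of 9 members and for 4.26% of all genes. Summed microglial markers (8 genes) were 69.2 to 75.5 CPM in kainate and 46.3 to 69.8 CPM in sham NeuN+ libraries, and summed astrocyte markers (7 genes) were 251 to 312 CPM against 187 to 253 CPM. The largest part of the astrocyte sum was Slc1a2 (means of 201 CPM in kainate and 125 CPM in sham). By their means, Aldh1l1, Aqp4 and S100b were also higher with kainate, and Slc1a3, Gja1 and Aldoc were lower. None of the markers in these lists was at 0 in a whole group. With the block, 3 of 7 astrocyte markers were called higher and 2 lower with kainate in NeuN+ nuclei, and of 8 microglial markers 1 was called in each direction, where 1.90% of all genes passed downward. The groups did not overlap, with kainate higher, for 3 of the 7 astrocyte markers. In the same fit 2 of 8 neuronal markers were higher and 1 of 5 leptomeningeal fibroblast markers was lower. Of 6 oligodendrocyte markers 1 was called in each direction, and 1 of 5 oligodendrocyte precursor markers was lower. Summed fibroblast markers were 69.1, 33.4 and 28.9 CPM in kainate and 126, 52.5 and 47.0 CPM in sham NeuN+ libraries 1 to 3, lower with kainate within every number. Most of that fall was in Dcn (means of 25.9 CPM in kainate and 55.7 CPM in sham). Col1a2 and Lum were also lower by their means, while Col1a1 (11.7 and 10.4 CPM) and Slc6a13 (2.26 and 2.02 CPM) were slightly higher. The part of the cell types in the NeuN+ results was not tested.

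The receptor chains Il6st and Lifr were the most abundant members in NeuN+ nuclei by CPM per kb of exon (below). Il6st reached 55.5, 54.0 and 47.1 CPM in kainate and 51.6, 32.0 and 38.2 CPM in sham libraries, a log2 fold change of 0.36 ± 0.38. Lifr reached 121, 93.8 and 85.4 CPM against 111, 57.1 and 64.2 CPM, a log2 fold change of 0.37 ± 0.46. In both genes the groups overlapped and the FDR was 1, or 0.505 and 0.387 with the block. Il6, Osm and Cntf were low, at 0.201 to 1.64 CPM in every NeuN+ library. Their log2 fold changes were -0.44 ± 0.65 (Il6), 0.27 ± 0.61 (Osm) and -0.40 ± 0.85 (Cntf), and none passed in either fit. The median log2 fold change of the 9 members was 0.37, beside -0.01 over all genes tested.

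**Figure D1:**
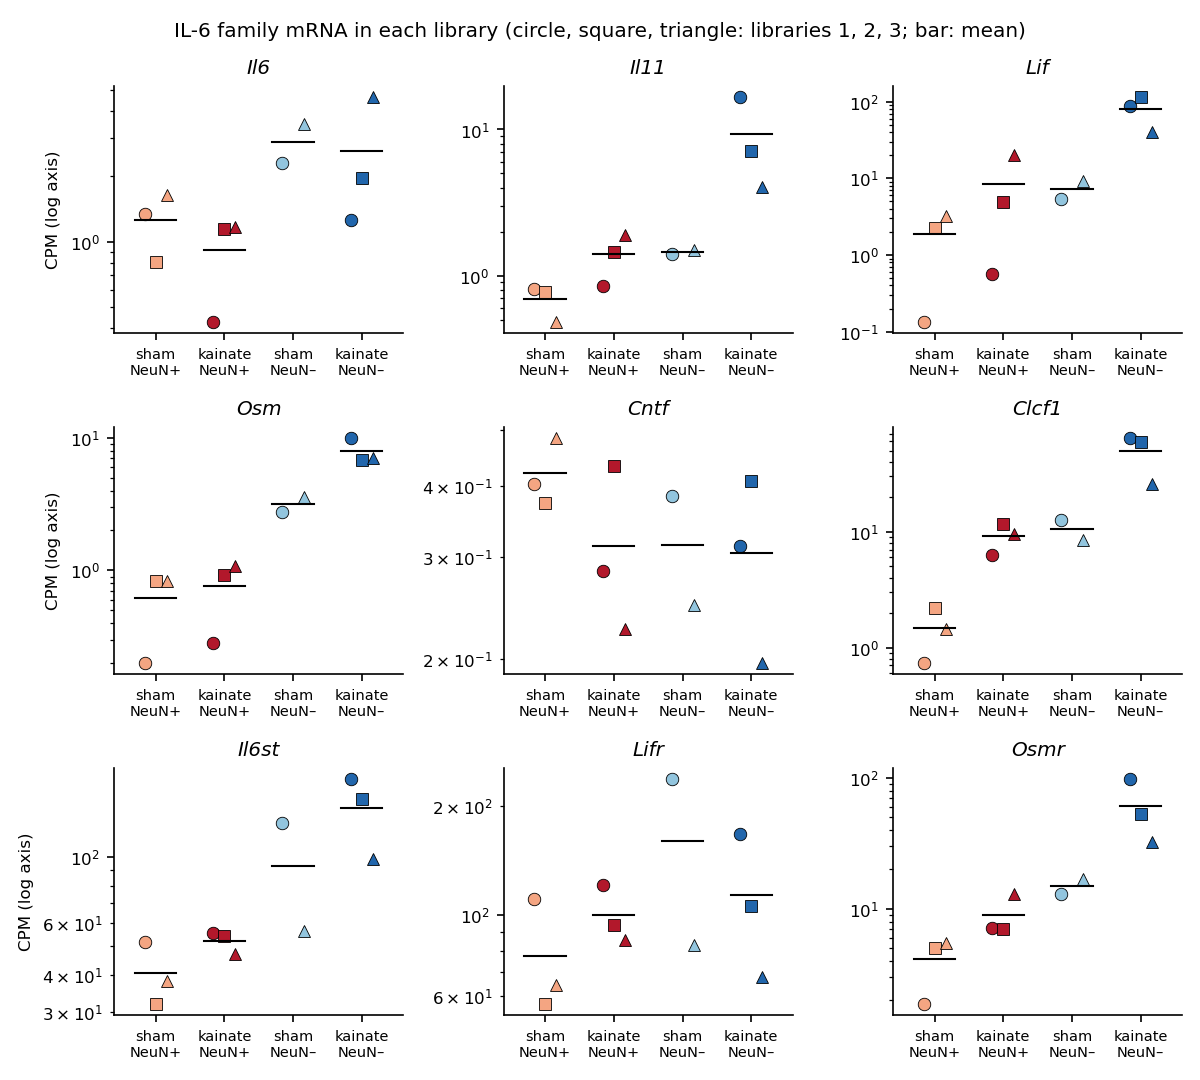
Normalised counts (CPM, log axes) of each member in each library, by group; circles, squares and triangles are libraries 1, 2 and 3 and bars are group means. Kainate and sham libraries do not overlap for Clcf1, Il11 and Osmr in both fractions and for Lif and Osm in NeuN– nuclei, and Cntf stays below 0.5 CPM in every library.

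In NeuN– nuclei, Lif, Il11, Clcf1, Osm and Osmr were each higher in the 3 kainate libraries than in both sham libraries. Without a block, 0 of 9 members passed FDR 0.25 by edgeR, where 0.0933% of all genes passed upward, although 4 members (Il11, Lif, Clcf1 and Osmr) had an unadjusted p below 0.05, as did 1.35% of all genes upward. DESeq2's Wald test called 3 of them (Il11, Clcf1 and Osmr), beside 0.469% of all genes upward. The study kept fewer genes after its own filters, and it lists Il11 as upregulated in glia at the same FDR threshold. With the replicate number as a block, 6 of 9 members were upregulated (Lif, Il11, Clcf1, Osmr, Osm and Il6st), where 2.93% of all genes passed upward. That fit rests on numbers 1 and 3 in this fraction, because kainate NeuN– library 2 has no sham partner and drops out. In number 1 the kainate library was made from 1 ng of RNA and the sham library from 0.05 ng. Within that number, treatment and RNA input cannot be told apart. The difference was larger within number 1 than within number 3 for Lif, Il11, Clcf1, Osmr and Osm, and smaller for Il6st. Groups that did not overlap, with kainate higher, were found for these 5 members and for 4.70% of all genes.

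Lif had the largest fold change of the members. It reached 88.3, 115 and 40.7 CPM in kainate libraries 1 to 3 and 5.30 and 9.12 CPM in sham libraries 1 and 3. The lowest kainate library lay well above the higher sham library. The log2 fold change was 3.49 ± 1.18, 11.2-fold (FDR 1.00), and 3.07 ± 0.34 with the block (FDR 2.94e-09). Within number 1 the difference was 16.4-fold and within number 3 it was 4.43-fold. On the log2 scale these are 4.04 and 2.15, a wider gap than the error of 0.34 with the block conveys.

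Il11, whose product signals through gp130 and its own binding chain, reached 16.6, 7.13 and 4.02 CPM against 1.41 and 1.49 CPM. The groups were separated, though the kainate libraries themselves spread widely. The log2 fold change of Il11 was 2.67 ± 0.70 (FDR 0.792) and 2.49 ± 0.51 with the block (FDR 0.00101). Without the block and without kainate library 1 it was 1.87. Clcf1 reached 63.8, 59.1 and 25.5 CPM against 12.6 and 8.38 CPM. Its log2 fold change was 2.24 ± 0.55 (FDR 0.606) and 1.98 ± 0.29 with the block (FDR 4.13e-06). Clcf1 shares 311 of 3806 exonic bases (8.17%) with another gene on the same strand, where reads need not be assigned to Clcf1.

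Osm reached 9.91, 6.79 and 7.08 CPM against 2.75 and 3.57 CPM, a log2 fold change of 1.32 ± 0.67 (FDR 1.00) and of 1.41 ± 0.44 with the block (FDR 0.0742). Its receptor chain Osmr reached 98.0, 53.0 and 32.7 CPM against 13.04 and 16.9 CPM, a log2 fold change of 2.03 ± 0.57 (FDR 1.00) and of 1.92 ± 0.33 with the block (FDR 7.45e-05). Ligand and receptor chain were each separated between the groups. Osm and Lif are neighbours on chromosome 11, with 16.5 kb between them, and Osmr and Lifr lie on chromosome 15 with 216 kb between them (mm10).

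Il6st reached 182, 157 and 98.0 CPM in kainate and 129 and 56.4 CPM in sham NeuN– libraries. The groups overlapped, and within numbers 1 and 3 kainate was 1.41- and 1.74-fold higher. Its log2 fold change was 0.65 ± 0.43 (FDR 1.00) and 0.65 ± 0.23 with the block (FDR 0.150). Without the block, the log2 fold change of Il6st was 1.40 without sham library 1 and 0.16 without sham library 3, each of which leaves 1 sham library. The median over all genes in these fits was -0.11 and 0.76. Lifr reached 167, 106 and 67.7 CPM against 237 and 82.8 CPM, a log2 fold change of -0.49 ± 0.50 (FDR 1.00). Its direction turned to 0.48 without sham library 1, which is of low input. Il6 overlapped fully, at 1.25, 1.97 and 4.64 CPM against 2.30 and 3.47 CPM, and its log2 fold change of -0.13 ± 0.71 did not pass in either fit. Without the block, the Il6 value was -1.03 without kainate library 3 and 0.11 without kainate library 1. Cntf had 5 to 12 reads per NeuN– library and a log2 fold change of -0.04 ± 0.97. Of its 1073 exonic bases 847 (78.9%) also belong to exons of Zfp91 on the same strand, so its level is uncertain. The median log2 fold change of the members was 1.32, beside 0.02 over all genes.

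Values without the libraries numbered 1 and the glial markers of the NeuN– libraries are given next. Without the 4 libraries numbered 1, a choice made after seeing the data, Clcf1 and Lif passed in NeuN+ nuclei (log2 fold changes of 2.45 and 2.11, FDR 1.60e-06 and 1.46e-04) and Lif, Clcf1 and Il11 in NeuN– nuclei (3.11, 2.35 and 1.92, FDR 5.09e-05, 0.00167 and 0.232). Of all genes, 1.41% and 0.954% passed upward in these fits. This choice leaves 1 sham NeuN– library, which is assumed to vary like the other groups. Summed glial markers ranged widely among NeuN– libraries. Oligodendrocyte markers were 4692 to 26324 CPM in kainate and 8379 to 37450 CPM in sham libraries, astrocyte markers 380 to 2552 CPM against 1102 to 4256 CPM, microglial markers 668 to 1909 CPM against 669 to 3601 CPM, and oligodendrocyte precursor markers (5 genes) 312 to 1366 CPM against 867 to 2645 CPM. The groups overlapped in each list, but kainate was lower than sham within both numbers, on which the block rests, except that microglial markers were nearly equal within number 3 (668 and 669 CPM). Within number 1 astrocyte markers were 2552 CPM in kainate and 4256 CPM in sham, and within number 3 they were 380 and 1102 CPM. With the block, 5 of 7 astrocyte, 5 of 5 precursor, 3 of 6 oligodendrocyte and 2 of 8 microglial markers were lower with kainate in NeuN– nuclei and none was higher, where 2.86% of all genes passed downward. In the same fit 2 of 8 neuronal markers (Gad1 and Tubb3) and 6 members were higher. Summed blood leukocyte markers (7 genes) were 82.5 to 95.9 CPM against 73.2 to 95.9 CPM. The part of composition in the NeuN– results was not tested.

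**Figure D2:**
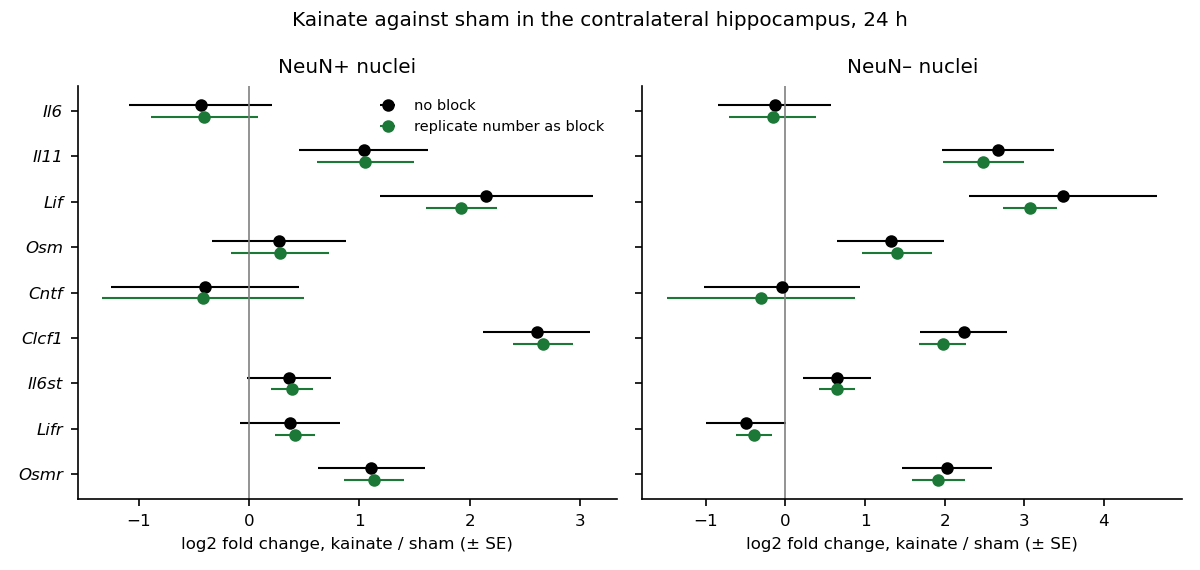
Log2 fold change of kainate against sham (± SE) for the 9 members in NeuN+ (left) and NeuN– nuclei (right), without a block (black) and with the replicate number as a block (green; in NeuN– nuclei from numbers 1 and 3). Lif, Clcf1, Il11 and Osmr lie right of 0 in both fractions, from 1.04 for Il11 to 3.49 for Lif without the block, and Il6 and Cntf lie left of 0.

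Whether the kainate effect differed between the fractions was tested directly. No member passed, with 0.00246% of all genes passing in either direction, and 0 members had an unadjusted p below 0.05 without the block. With the block, where 1.94% of genes passed, again 0 of 9 members did, and 3 had an unadjusted p below 0.05. Their differences (NeuN+ minus NeuN–) were -1.43 ± 0.67 for Il11, -1.15 ± 0.46 for Lif and 0.82 ± 0.29 for Lifr on the log2 scale. With the pool of hippocampi as a block, 0 of 9 members and 0.0221% of genes passed, and the 3 differences had unadjusted p-values by edgeR of 0.201 (-1.24 ± 0.91), 0.352 (-1.51 ± 1.55) and 0.118 (0.63 ± 0.37). DESeq2 called 0 of the 7 members to which it gave an adjusted p (not Il6 and Cntf). Clcf1 differed by 0.37 ± 0.67 without the block, with the larger fold change in NeuN+ nuclei. For 7 of 9 members the estimate was below 0, that is a larger or less negative fold change in NeuN– nuclei.

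Over both treatments, the normalised counts of 7 of 9 members were lower in the NeuN+ fraction (FDR below 0.25), where 20.4% of all genes were lower. The log2 differences were -2.81 ± 0.46 for Osm, -2.62 ± 0.35 for Clcf1, -2.58 ± 0.71 for Lif, -2.30 ± 0.36 for Osmr, -1.89 ± 0.43 for Il11, -1.35 ± 0.48 for Il6 and -1.34 ± 0.28 for Il6st, with FDRs of 0.000113 to 0.0743. That of Lif depended on kainate NeuN+ library 3, without which it was -3.37. The median over the members was -1.89 and that over all genes -0.47. Lifr just missed the threshold (-0.61 ± 0.34, FDR 0.2505) and passed with the pool of hippocampi as a block (-0.41 ± 0.19, FDR 0.111), where 34.8% of all genes were lower and 8 of 9 members passed. That block drops sham NeuN+ library 2, which has no NeuN– partner. Cntf did not differ past the threshold (0.24 ± 0.65, FDR 0.813). In sham libraries alone, where 7.63% of all genes were lower, 4 members passed, namely Clcf1 (-2.80 ± 0.52), Osm (-2.29 ± 0.66), Osmr (-1.84 ± 0.53) and Il6st (-1.19 ± 0.42). Among sham libraries the log2 differences of Il6 (-1.19), Il11 (-1.08) and Lif (-1.91) were also below 0 but did not pass (FDR 0.390 to 0.468). Whether they differ from the values over both treatments was not tested.

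Levels of different genes were compared as CPM per kb of exon. In sham NeuN+ nuclei, Lifr was highest (7.19 ± 2.73, SD, n = 3), followed by Il6st (3.66 ± 0.90), and their ranges did not overlap. The other 7 members lay between 0.275 ± 0.161 (Osm) and 0.520 ± 0.175 (Il6), each overlapping with its neighbour in this order. In kainate NeuN+ nuclei Lifr (9.30 ± 1.74) and Il6st (4.70 ± 0.40) led again, followed by Clcf1 (2.40 ± 0.70), which was sixth among sham libraries, and by Lif (1.96 ± 2.35). Clcf1 and Lif overlapped.

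In sham NeuN– nuclei the order was Lifr (14.8 ± 10.1, n = 2), Il6st (8.37 ± 4.66) and Clcf1 (2.75 ± 0.78), and Lif, Osm, Osmr and Il6 overlapped at 1.19 to 1.66. Lifr and Il6st overlapped, and Il11 (0.695 ± 0.028) and Cntf (0.294 ± 0.089) were the lowest. In kainate NeuN– nuclei Lif had the highest mean (18.7 ± 8.63, n = 3), but it overlapped with Il6st (13.1 ± 3.89), Il6st with Clcf1 (13.01 ± 5.49) and Clcf1 with Lifr (10.5 ± 4.65). Osmr (5.05 ± 2.76), Il11 (4.45 ± 3.15) and Osm (3.49 ± 0.76) followed and overlapped. Il6 (1.08 ± 0.73) and Cntf (0.285 ± 0.098) were the lowest, with ranges that did not overlap. By their means, the ligands Lif and Clcf1 thus stood beside the receptor chains Il6st and Lifr in this group and below both in the other 3 groups.

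**Figure D3:**
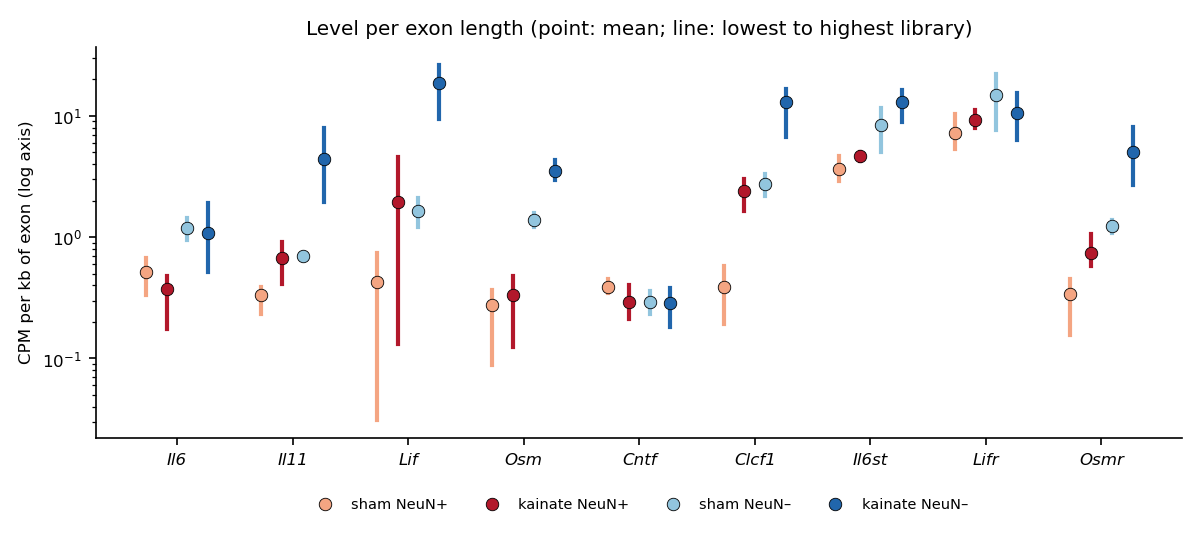
Level of each member as CPM per kb of exon (log axis) in the 4 groups; points are means and lines run from the lowest to the highest library. Lifr and Il6st lead in sham NeuN+ nuclei (7.19 and 3.66), while Lif (18.7), Il6st (13.1), Clcf1 (13.01) and Lifr (10.5) overlap in kainate NeuN– nuclei.

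The partners of the members were followed through lists of the pathway, which were written with earlier results of these data known. Of 5 other ligands (Ctf1, Ctf2, Il27, Ebi3 and Il31), 0 passed in either fraction by edgeR, with or without the block, and 0 had an unadjusted p below 0.05 without it. Their log2 fold changes lay between -0.04 and 0.22 in NeuN+ and between -0.28 and 1.00 in NeuN– nuclei.

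Of 6 other receptor chains, 0 passed without the block in either fraction, and none had an unadjusted p below 0.05. Cntfr, which binds CNTF and CLCF1, was 46.5, 32.1 and 30.4 CPM in kainate and 41.5, 18.6 and 11.2 CPM in sham NeuN+ libraries. In NeuN– libraries it was 66.7, 41.2 and 20.8 CPM in kainate and 106 and 35.2 CPM in sham. Cntfr thus lay higher with kainate within every number in NeuN+ nuclei and lower within both numbers in NeuN– nuclei. With the block it was upregulated in NeuN+ nuclei (0.79, FDR 0.0205) and downregulated in NeuN– nuclei (-0.72, FDR 0.157), and the difference between the fractions passed (1.51, FDR 0.00836). With the pool as a block that difference of Cntfr did not pass (1.39 ± 0.39, FDR 1.00). Il27ra, a receptor chain for IL-27, was the other one that passed with the block, downward in NeuN+ nuclei (-0.90 ± 0.33, FDR 0.197, and -0.79 ± 0.72, FDR 1.00, without it). Without any block the values of Cntfr were 0.61 ± 0.55, -0.72 ± 0.60 and 1.34 ± 0.82, all with an FDR of 1.00. Il6ra and Il11ra1, the binding chains of IL-6 and IL-11, did not pass in either fraction (Il6ra 0.44 ± 0.47 and -0.78 ± 0.51, Il11ra1 -0.43 ± 0.33 and -0.71 ± 0.37).

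Of 11 kinases and STATs, 0 passed without the block in either fraction, with 2 at an unadjusted p below 0.05 in each. With the block 2 rose and 1 fell in NeuN+ nuclei, and 3 rose in NeuN– nuclei, where 3.19% and 2.93% of all genes passed upward. Stat3 reached 148, 163 and 136 CPM in kainate and 41.8, 92.4 and 36.7 CPM in sham NeuN+ libraries. In NeuN– libraries Stat3 reached 570, 379 and 202 CPM against 175 and 60.99 CPM. The groups were separated in both fractions. The log2 fold changes were 1.39 ± 0.50 and 1.70 ± 0.59 (FDR 1.00 in both) and, with the block, 1.51 and 1.72 (FDR 1.08e-07 and 7.58e-07). Jak3 rose with the block in both fractions as well (0.92 and 1.17, FDR 0.0121 and 0.00815).

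Among 16 inhibitors, Socs3 was the 1 gene upregulated in each fraction without the block. It was 3.22, 3.13 and 3.06 CPM in sham libraries 1 to 3 and rose to 39.8, 78.4 and 91.1 CPM in kainate NeuN+ libraries. In NeuN– nuclei it rose from 10.3 and 10.7 CPM to 650, 403 and 375 CPM. The log2 fold changes were 4.47 ± 0.43 (FDR 0.00143) and 5.50 ± 0.54 (FDR 0.00358). With the block, and against the same shares of all genes, 2 inhibitors rose in NeuN+ nuclei, while 6 rose and 1 fell in NeuN– nuclei. The medians of the list were 0.28 and 0.26. Socs3 was called in 11 of 11 fits that left out 1 library in both fractions, with FDRs of up to 0.0421 and 0.0838.

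The list of 28 genes that STAT3 is known to regulate was also written with earlier results known. Its share of calls, with or without the block, is therefore no test of STAT3 activity. Of these 28 genes, 4 rose and 0 fell in NeuN+ nuclei without the block, where 0.157% of all genes passed upward. They were Sbno2 (2.03 ± 0.36, FDR 0.121), the immediate early gene Fos (3.09 ± 0.59, FDR 0.150), the metalloproteinase inhibitor Timp1 (3.31 ± 0.66, FDR 0.169) and the intermediate filament gene Vim (2.89 ± 0.57, FDR 0.169). In NeuN– nuclei 9 rose and 0 fell, where 0.0933% of all genes passed upward. These were Fos (5.67 ± 0.80), Timp1 (5.64 ± 0.89), the acute phase gene Serpina3n (4.28 ± 0.74), Junb (3.78 ± 0.64), the hyaluronan receptor gene Cd44 (3.72 ± 0.58), the chemokine gene Ccl2 (3.08 ± 0.55), Myc (2.92 ± 0.43), Cebpd (2.82 ± 0.51) and Sbno2 (2.70 ± 0.44), with FDRs of 0.0763 to 0.142. Fos, Junb and Myc are also induced by neuronal activity and growth signals. With 1 library left out, the calls in NeuN+ nuclei were kept in 4 (Timp1 and Vim), 5 (Sbno2) and 6 (Fos) of 11 fits, and those in NeuN– nuclei in 5 (Ccl2 and Cebpd) to 10 (Fos). The size of the change in NeuN– nuclei moved by more than 1.5-fold for 4 of these genes. Without kainate NeuN– library 1 it was 4.85 for Fos, 4.90 for Timp1 and 3.66 for Serpina3n. Without sham NeuN– library 1 it was 6.46 for Timp1, 5.35 for Serpina3n and 4.45 for Junb, and without sham NeuN– library 3 it was 3.67 for Serpina3n. No NeuN– call of the 9 was kept without sham NeuN– library 1, which leaves 1 sham library, and without kainate NeuN– library 2 that of Fos was kept and the other 8 were lost.

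With the block 16 of the 28 rose in NeuN+ and 21 in NeuN– nuclei, beside 3.19% and 2.93% of all genes, and 0 fell in either. The list medians were 1.37 and 1.64, beside -0.01 and 0.02 over all genes. The difference between fractions passed for 0 of 28 without the block and for 13 of 28 with it (1.94% of all genes), of which 11 had the larger log2 fold change in NeuN– nuclei. With the pool as a block 1 of 28 and 0.0221% of all genes passed, in the list Cebpd (-3.11, FDR 0.0325), while Ccl2 (-2.80, FDR 0.317), Vegfa (1.15) and Vim (1.62, FDR 1.00 in both) did not. Among the 13, Ccl2 (-0.02 in NeuN+ against 3.08 in NeuN–) and Cebpd (-0.24 against 2.82) were near 0 in NeuN+ nuclei. Vegfa, which encodes a vascular growth factor, differed the other way, at 2.02 ± 0.53 in NeuN+ and 0.53 ± 0.58 in NeuN– nuclei (difference with the block 1.16, FDR 0.0430), as did Vim.

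**Figure D4:**
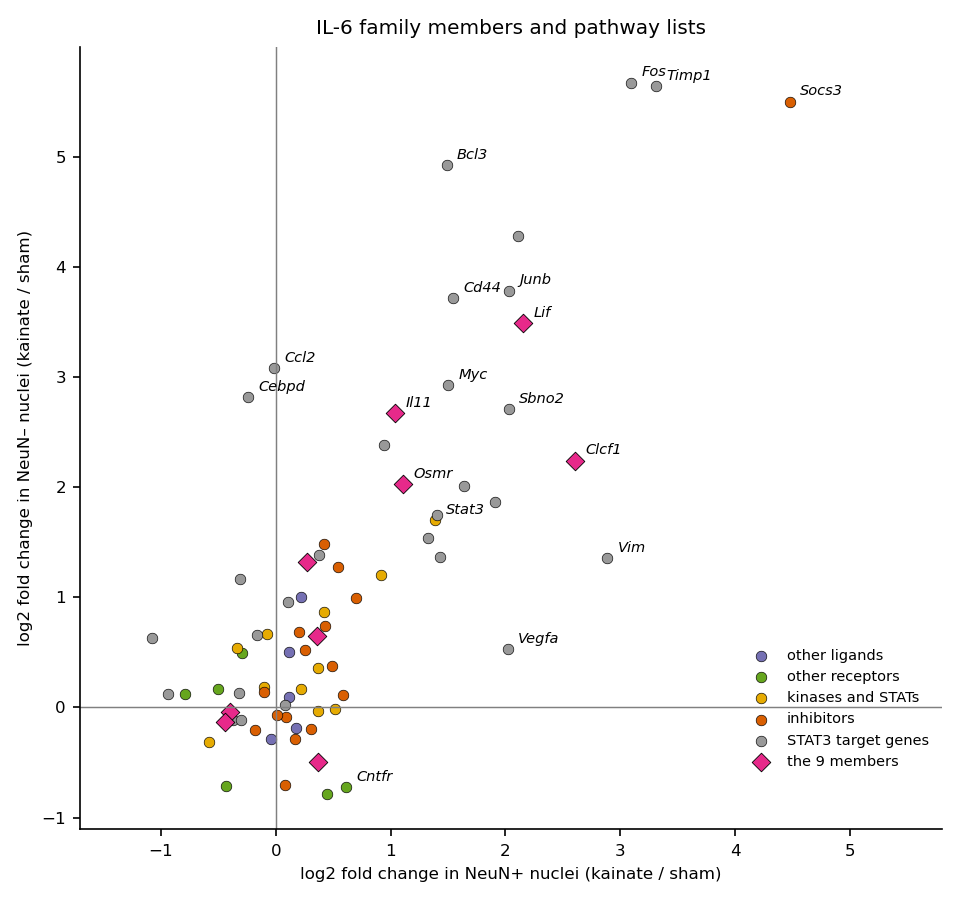
Log2 fold change of kainate against sham in NeuN+ (x axis) and NeuN– nuclei (y axis), without the block, for the 9 members (diamonds) and the genes of 5 pathway lists (circles). Socs3 (4.47 and 5.50), Fos and Timp1 lie farthest from 0 in both fractions, and Lif and Clcf1 lie among the upper STAT3 target genes.

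The genes whose levels followed each member most closely over the 11 libraries were listed as a description. For Lif they were Nes, which encodes the intermediate filament nestin (Pearson r = 0.978), Bdkrb2, a bradykinin receptor gene (0.977), and Bcl3 (0.973). Bcl3, a member of the IκB family, was 100, 72.2 and 46.3 CPM in kainate and 1.09 and 3.67 CPM in sham NeuN– libraries. For Clcf1 they were the collagen gene Col18a1 (0.981), Il17ra (0.969) and Ucp2 (0.969). For Osmr they were Wwtr1 (0.989), Glipr2 (0.985) and Amotl1 (0.979), and for Osm Adamtsl3 (0.990), Gm12530 (0.986) and the integrin gene Itga1 (0.982). Il11 was followed by Txnrd3 (0.970), Tm4sf1 (0.968) and Akr1b8 (0.954), and Il6 by Tmem79 (0.957), Gm42427 (0.951) and Olfr853 (0.947). Il6st was followed by Nacad (0.990), Endod1 (0.982) and Spsb1 (0.981), and Lifr by E330009J07Rik (0.987), Shisa4 (0.979) and Vbp1 (0.978). The libraries form a NeuN+ and a NeuN– cluster, so any gene that differs between the fractions correlates with the members that do. These values carry no test.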

How the data were processed

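Adult mouse hippocampi contralateral to the injection were profiled by mRNAseq of sorted nuclei (11 libraries), with SMART-Seq v4 amplification from oligo-dT priming. The authors trimmed reads with Trim Galore 0.4.3, used Rsubread for alignment and its featureCounts function to assign uniquely mapped reads to genes of GENCODE M16 (mm10). The deposited values are raw counts for 53379 genes. Strand and overlap settings are not given in the sources used here. 11 further samples (bisulfite sequencing) were not analysed here.

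The 105 genes without a symbol were left out. edgeR 4.0.16 (R 4.3.3) was used with filterByExpr (minimum count 10, minimum total 15), TMM scaling and a quasi-likelihood fit (legacy) of 4 group means to the 11 libraries. Kainate was compared with sham in each fraction, the effects were compared between fractions, and NeuN+ with NeuN– nuclei. P-values were adjusted over 40714 genes by the Benjamini-Hochberg method, called at FDR below 0.25, the threshold in the study's methods. The study fitted the fractions separately, which was run as an alternative. The model had 7 residual degrees of freedom, and 3 with the block, over both fractions together. Replicates are pools of mice, and the errors without a block cover the spread between pools and PCR reads, not molecules. In each fit edgeR draws the spread of a gene toward that of all genes. With the block, the errors of Lif and Osmr in NeuN– nuclei were smaller than the gap between numbers 1 and 3 would give. Deviations from group means of same-numbered kainate and sham libraries correlated at 0.643, 0.161 and 0.491 (NeuN+) and 0.760 and 0.787 (NeuN–), and those of the NeuN+ and NeuN– libraries of 1 pool at 0.240 to 0.668, so the number was used as a block. What the shared number stands for is not given in the labels. Coordinates and exon lengths are from GENCODE M21, and promoters from RefSeq.

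Members and lists, written from general knowledge, were chosen with earlier results of these data known. All 9 members are named, as are list genes called without the block and, for each member with a mean of at least 1 CPM, the 3 genes with the highest correlation of log2 CPM. Cntfr, Il27ra, Il6ra, Il11ra1, Stat3, Jak3, Vegfa, Bcl3, Gad1 and Tubb3 were named after their values were seen. So were the astrocyte and fibroblast markers named for NeuN+ nuclei. Alternatives were DESeq2 1.42.0 (size factors or Wald test), filters, the newer edgeR fit, FDR below 0.05, each library left out, low input left out or as a covariate, blocks, a separate fit per fraction and sham libraries alone. Genes with an Entrez Gene ID and no libraries numbered 1 were added after seeing the data. The fits were run on simulated counts with a fixed spread lower than that of the data and no effect of the replicate number. Changes were put only in genes of higher counts in NeuN+ nuclei. That run cannot show how the fits perform for low counts or for NeuN– calls with the block. 1 gene was left out of the pathway lists and is not reported here; list genes that are not named enter the counts.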

Additional observations from a re-analysis of the deposited data

How the results depend on the processing

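The number of members called changed with some choices. In NeuN+ nuclei it was 0 at FDR below 0.05, 3 with the replicate block and 2 without the libraries numbered 1, against 1 in the fit reported, and it ranged from 0 to 1 over the fits that left out 1 library. In NeuN– nuclei it was 3 by DESeq2's Wald test, 1 with the newer edgeR fit, 6 with the replicate block and 3 without the libraries numbered 1, against 0, and it ranged from 0 to 3 with 1 library left out. The upper end came without sham NeuN– library 3, where 5.53% of all genes passed upward, against 0.0933% in the fit reported, and the median log2 fold change of all genes was 0.76. That choice and leaving out the libraries numbered 1 each leave 1 sham NeuN– library, which is assumed to vary like the other groups. With the newer edgeR fit, 0.157% of all genes passed upward in NeuN– nuclei. Between fractions, 7 members passed in the fit reported, 4 in sham libraries alone, 6 at FDR below 0.05, 8 with DESeq2 size factors, DESeq2's Wald test, a CPM filter, the newer edgeR fit, the pool as a block or genes with an Entrez Gene ID, and 7 to 8 with 1 library left out. Where 8 passed, apart from the fits with 1 library left out, 21.6% to 35.4% of all genes were lower, against 20.4% in the fit reported. At FDR below 0.05, 7.42% of all genes were lower. With 1 library left out, 13.8% to 21.7% were lower in the fits that kept both sham NeuN– libraries. No member passed for the difference in kainate effect under any alternative in which it was tested. DESeq2 gave Il6 and Cntf no adjusted p there, and Cntf was filtered out with the CPM filter, without sham NeuN+ library 3 and without kainate NeuN– library 2.

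Directions turned for values that passed under none of the alternatives run. With 1 library left out, the log2 fold change in NeuN– nuclei ranged from -1.03 to 0.18 for Il6, from -0.34 to 0.32 for Cntf and from -1.07 to 0.48 for Lifr, and that of Osm in NeuN+ nuclei from -0.10 to 0.63. That of Cntf between fractions ranged from -0.083 to 0.43. The difference between the kainate effects ranged from -0.62 to 0.57 for Il6, from -1.03 to 0.20 for Il6st and from -0.11 to 1.44 for Lifr. Without the low-input libraries, Cntf in NeuN– nuclei was 0.035, Lifr 0.53 and the difference for Lifr -0.16. With low input as a covariate Cntf was 0.048. Without the libraries numbered 1, Cntf was 0.28 and Lifr 0.083 in NeuN– nuclei. The cause was not tested. Of the other member values over all alternatives, 751 kept direction and call, 28 were called where they had not been, and 11 lost a call, leaving out 5 to which DESeq2 gave no adjusted p. Reads of Cntf, 4 to 17 per library, limit what can be seen for that gene. For the other members, the part of the small number of pools was not tested.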
